A study of Danio rerio with 6 samples.

Results

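Eph receptors and ephrins were examined in cells sorted from zebrafish hearts. The genes were taken by name, as all symbols that begin with eph or efn followed by a or b and a number, whatever their expression. This gave 30 of 31465 genes, of which 8 encode EphA receptors, 8 EphB receptors, 9 ephrin-A ligands and 5 ephrin-B ligands. The hearts came from untreated embryos of sqet33mi59BEt at 72 hpf, a line in which an inserted reporter labels with GFP a small ring of cells at the inflow of the atrium. Dissociated cells were sorted into a GFP+ and a GFP- fraction, with 3 libraries each. The study took these as the sinoatrial ring (SAR) and the rest of the heart (ROH), and its names are used here. Markers of other tissues in both fractions are given below. Both fractions came from embryos with the insertion, each replicate pooled the hearts of many embryos, and only fluorescence was used to sort them. Symbols in capitals, such as EFNB3, are zebrafish genes that the name table lists under a human symbol, and 8 genes that share such a symbol with another are given with their Ensembl identifier.

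Eph receptors are tyrosine kinases of the cell surface that respond to ephrins carried by touching cells. EphA receptors mostly bind ephrin-A ligands, which a lipid anchor holds on the membrane, and EphB receptors mostly bind ephrin-B ligands, which span the membrane and also signal into the cell that carries them. The system is known for keeping cell populations apart at tissue borders, for guiding axons, and for the separation of arteries from veins, where ephrin-B2 is an arterial and EphB4 a venous gene.

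The estimated counts summed to between 7495108 and 77243214 in SAR libraries and between 999437 and 23495798 in ROH libraries. ROH replicate 1 was the smallest, and in it 10 of the 30 genes had under 10 counts and 2, EPHB1 and efna4, had under 3 (the limit taken for detection, 3 counts, or 3.0 CPM there). All 30 were above 0 in every library. Genes listed as markers of the sinoatrial region summed to 271 to 308 TPM (a level scaled to gene length and library total) in SAR, against 113 to 203 TPM in ROH. Of these, 5 of 10 passed the test as higher in SAR, though isl1 and shox2 did not pass. tbx18, 1 of the 5, is also on the epicardial list below, at 68.1 to 125 TPM in SAR and 4.30 to 12.0 TPM in ROH. Without it the sinoatrial sums overlapped between the fractions. isl1 (log2 fold change -1.56), TBX3 (-0.55) and a copy of FGF13 (-0.06) were fitted lower in SAR. The fractions also differed in markers of other cells. Epicardial markers summed to 672 to 862 TPM in SAR, against 81.1 to 116 TPM in ROH, and epithelial markers to 3772 to 5536 TPM in SAR, against 953 to 1083 TPM in ROH, with 5 of 5 and 5 of 8 genes higher. Endothelial and endocardial markers summed to 384 to 484 TPM in SAR, against 756 to 1894 TPM in ROH, with 9 of 14 lower. Much of this sum was klf2a, at 257 to 353 TPM in SAR and 277 to 562 TPM in ROH, with overlap. The list had a median log2 fold change of -3.15, a larger fall than its sum shows. Erythrocyte markers were at 13.6 to 23.4 TPM in SAR, against 25889 to 42365 TPM in ROH, and leukocyte markers were at 2.29 to 4.21 TPM in SAR, against 238 to 409 TPM in ROH. Liver markers were at 52.7 to 2089 TPM in SAR and 10699 to 18235 TPM in ROH. As lower in SAR, 8 of 8 erythrocyte and 6 of 8 leukocyte genes passed, but 0 of 6 liver genes. Sums of cardiomyocyte, neural crest and neuronal markers overlapped between the fractions. The cardiomyocyte list had a median log2 fold change of 1.41, with 1 gene, tnnt2a, higher, and the neuronal list a median of 1.08, with 1 gene, gap43, higher. In such bulk libraries, fewer cells of a type and less RNA per cell cannot be told apart, and the part of these cell types in the results that follow was not tested.

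Of the 30 genes, 4 passed edgeR's quasi-likelihood test at an adjusted p below 0.05. The receptor gene epha7 and the ligand gene efna3b were higher in SAR, while the receptor gene epha3 and the ligand gene efna2a were lower. All 4 belong to the A class. Among all 21969 genes tested, 5.03% passed as higher in SAR and 5.31% as lower, so 2 of 30 in each direction was near the background. With the replicate number as a block, since each pool of embryos gave both fractions, efna1b, EFNA5 and EFNB3 passed as higher too and ephb4a as lower, which made 5 of 30 higher and 3 of 30 lower, where 7.11% and 7.17% of all genes tested passed. With the study's added threshold of an absolute log2 fold change of 1.5, epha7 and efna3b remained, where 2.84% of all genes tested were called higher. None of the 30 was called lower in the edgeR fit without the block, where the background was 3.45%, or in DESeq2. That edgeR fit used all libraries and normalisation beyond library totals. In all, 11 of the 30 genes had an unadjusted p below 0.05, where 5140 of all 21969 genes tested did. epha3 fell just short of the fold threshold, at -1.497. It was past the threshold with the replicate block, at -1.51, and with library totals only, at -1.60 (adjusted p = 0.00708 in edgeR).

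**Figure D1:**
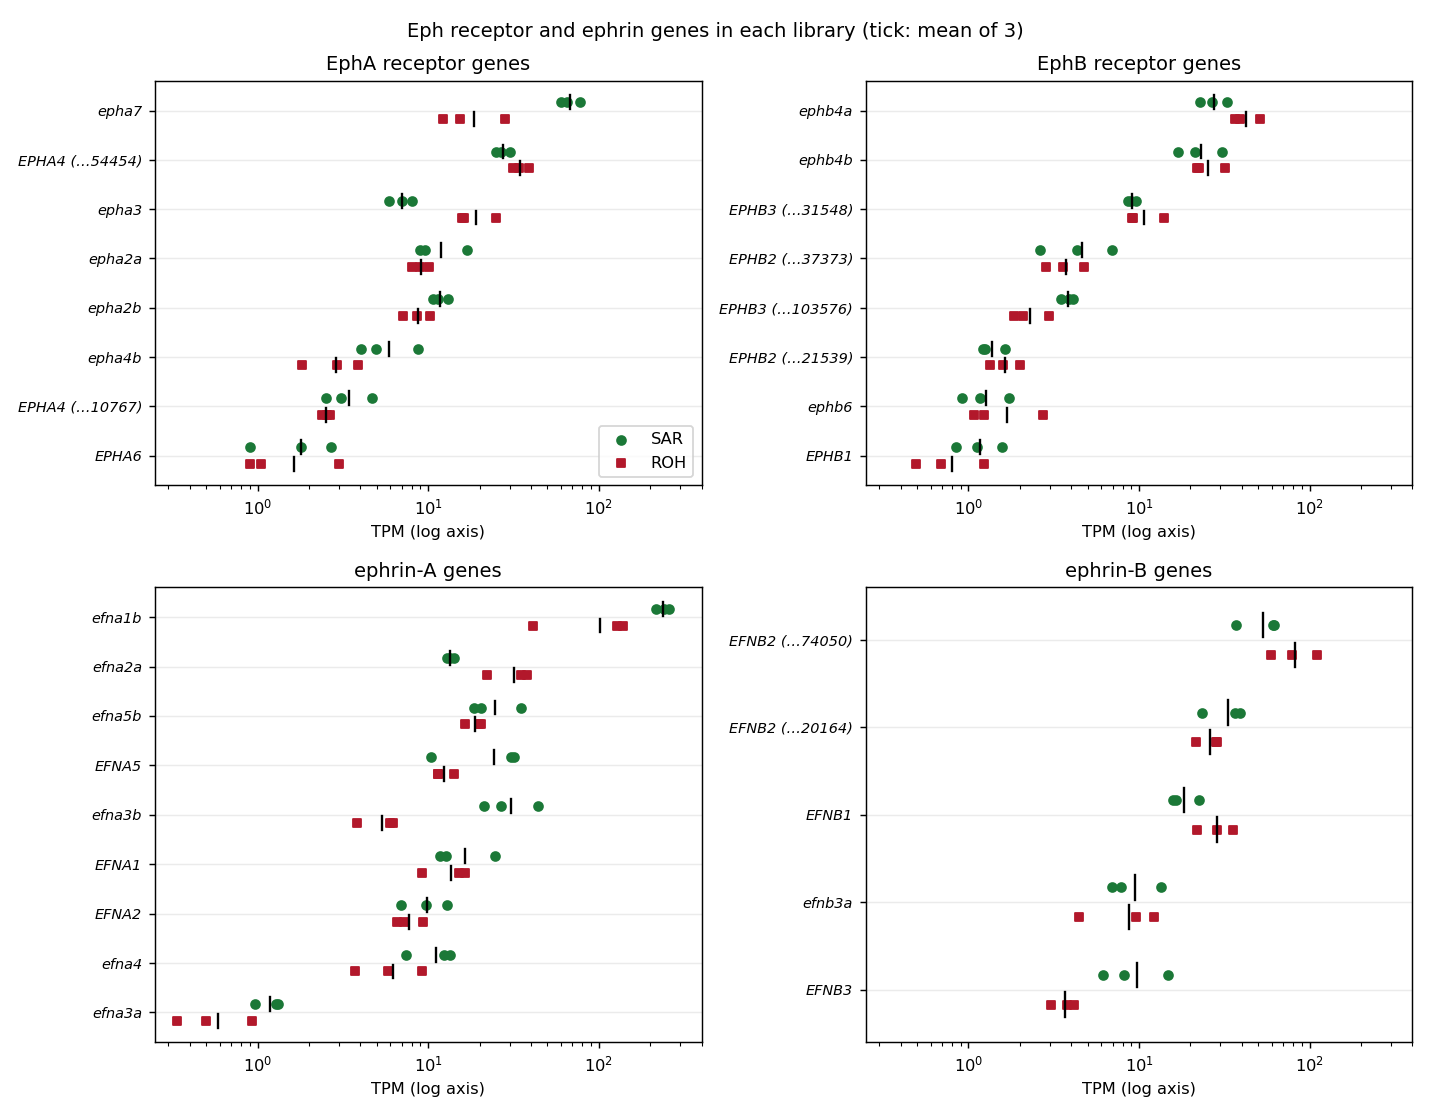
Level of each Eph receptor and ephrin gene in TPM (horizontal log axis) in the 3 SAR libraries (green circles) and the 3 ROH libraries (red squares), by class, with a tick at the mean of 3; genes that share a symbol are marked with the end of their Ensembl identifier. epha7 lay at 60.2 to 77.4 TPM in SAR and 12.2 to 28.3 TPM in ROH, and efna1b was the most abundant of all 30 genes in both fractions by mean.

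The EphA receptor with the largest difference was epha7, a gene known in vertebrate embryos for patterned expression in the nervous system. Its level was 65.3, 60.2 and 77.4 TPM in SAR, against 12.2, 15.3 and 28.3 TPM in ROH. The gap between the fractions was wider than the range within either. In edgeR's fit of the estimated counts, epha7 rose in SAR by 1.80 on the log2 scale (SE 0.32, adjusted p = 0.0106). The call was lost, at 1.65 and an adjusted p of 0.0512, without ROH replicate 2, and held when any other library was left out. By mean TPM over 31465 genes, epha7 ranked 2342nd in SAR and 6575th in ROH.

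epha3, which encodes a receptor that in the mouse is needed for the endocardial cushions between atria and ventricles, went the other way. It was at 8.0, 5.90 and 7.05 TPM in SAR, against 15.8, 16.2 and 25.1 TPM in ROH, with no overlap. edgeR gave a log2 fold change of -1.497 (SE 0.28, adjusted p = 0.0131), which is a level 2.82-fold higher in ROH. Its call was lost without ROH replicate 3, whose level was the highest, at -1.14 and an adjusted p of 0.0582, and with counts thinned to the smallest library, at -1.14 and an adjusted p of 0.0617. epha7 and epha3 were thus near each other in ROH, at a mean of 18.6 ± 8.58 and 19.0 ± 5.25 TPM, and far apart in SAR, at 67.6 ± 8.87 and 6.98 ± 1.06 TPM (SD, n = 3 each).

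The other 6 EphA genes did not pass the test. The copy of EPHA4 with identifier ENSDARG00000054454 was the most abundant EphA gene in ROH. EphA4 is a receptor that binds ligands of both classes. This copy had 26.8, 30.2 and 25 TPM in SAR, against 33.9, 31.2 and 38.8 TPM in ROH, a narrow but complete separation (log2 fold change -0.50, SE 0.17, adjusted p = 0.105 in edgeR). epha2b, a homologue of a receptor known from epithelia and the lens, was likewise separated, with 10.6, 13 and 11.4 TPM in SAR and 7.13, 8.55 and 10.3 TPM in ROH, and a log2 fold change of 0.36 (SE 0.21, adjusted p = 0.374). The remaining 4 were at means of 1.80 to 11.8 TPM in SAR and 1.64 to 9.06 TPM in ROH, and their fitted log2 fold changes ran from 0.34 for epha2a to 0.93 for epha4b, with libraries of the fractions overlapping in the normalised counts. In TPM, epha4b was separate, at 8.71, 4.05 and 4.92 in SAR and 1.82, 2.94 and 3.90 in ROH, where the closest libraries nearly met. Counts were low for epha4b and EPHA6, with 5 each in ROH replicate 1.

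None of the 8 EphB genes passed in DESeq2 or, without the replicate block, in edgeR, except ephb4a with library totals only (-0.77, adjusted p = 0.0332). In edgeR's quasi-likelihood fit, 1 of them, ephb4a, had an unadjusted p below 0.05. The most abundant in both fractions was ephb4a, the zebrafish homologue of the venous receptor, at 26.8, 32.9 and 22.6 TPM in SAR and 39.3, 51.0 and 36.6 TPM in ROH. The fractions did not overlap, and the log2 fold change was -0.65 (SE 0.19, adjusted p = 0.0651 in edgeR), or -0.66 with an adjusted p of 0.0310 with the replicate block. Its copy ephb4b came next, and it overlapped between the fractions at 17, 30.8 and 21.3 TPM in SAR and 21.8, 31.7 and 22.6 TPM in ROH (log2 fold change -0.20, SE 0.20). The summed endothelial and endocardial markers were lower in SAR too (384 to 484 TPM in SAR, against 756 to 1894 TPM in ROH). Much of that sum was klf2a, which overlapped between the fractions, and the median log2 fold change of the list was -3.15. The part of these markers in the value of ephb4a was not tested.

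EphB2 and EphB3 are known together from axon guidance and, in the mouse, from the ordering of cells in intestinal crypts. The EPHB3 copy ENSDARG00000103576 was separated upward, with 3.91, 4.11 and 3.47 TPM in SAR and 2.98, 1.84 and 2.08 TPM in ROH, but it had 3 counts in ROH replicate 1 and did not pass (log2 fold change 0.85, SE 0.43, adjusted p = 0.287). The other EPHB3 copy was at a mean of 9.05 ± 0.534 TPM in SAR and 10.7 ± 2.77 TPM in ROH, with overlap. Both copies of EPHB2 overlapped, the more abundant, ENSDARG00000037373, at 4.64 ± 2.19 TPM in SAR and 3.73 ± 0.940 TPM in ROH (SD, n = 3 each). EPHB1 and ephb6, whose mammalian product lacks kinase activity, were at or below 1.68 TPM on average in either fraction, and no difference was detectable for them at this depth, with 1 and 8 counts in ROH replicate 1.

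Among the ligands, efna3b had the largest log2 fold change of all 30 genes. Ephrin-A3 is known from the nervous system. efna3b reached 26.7, 21.1 and 43.9 TPM in SAR, against 3.82, 5.97 and 6.19 TPM in ROH. The lowest SAR library was above the highest ROH library by more than the whole ROH range, and edgeR gave a rise of 2.42 on the log2 scale, or 5.35-fold (SE 0.34, adjusted p = 0.00367). The call held without each of the 6 libraries in turn, although ROH replicate 1 held only 6 counts of this gene, so that a filter of 10 counts in every library left it untested. By mean TPM it ranked 4499th of 31465 genes in SAR and 12650th in ROH.

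efna2a was the ligand that fell in SAR. Ephrin-A2 is best known from the visual system of the chick and mouse, where it guides axons of the retina. The gene was at 12.9, 13.3 and 14.2 TPM in SAR, against 35.1, 22.1 and 37.8 TPM in ROH. The SAR libraries lay close together and below all ROH libraries, with a log2 fold change of -1.27 (SE 0.25, adjusted p = 0.0151 in edgeR). The adjusted p was 0.0667 (log2 fold change -1.18) without ROH replicate 1 and 0.0562 (-1.01) without ROH replicate 3.

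The most abundant of all 30 genes was efna1b. Ephrin-A1 was first known as a product of stimulated endothelial cells. It was at 259, 242 and 216 TPM in SAR, against 127, 138 and 40.9 TPM in ROH. Each SAR library exceeded each ROH library, but ROH replicate 3 lay far below the other 2. The log2 fold change was 1.26 (SE 0.40), and with an adjusted p of 0.0955 in edgeR the gene did not pass. Without ROH replicate 3 it passed with a smaller fold, at 0.94 and an adjusted p of 0.0334, and DESeq2 also passed it, at 1.29 and an adjusted p of 0.00935. With the replicate block it passed at 1.40 and an adjusted p of 0.0233. Its rank by mean TPM was 723rd in SAR and 1683rd in ROH.

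EFNA5 encodes a ligand that acts with ephrin-A2 on axons of the retina. Its level was 10.3, 30.4 and 31.9 TPM in SAR and 11.4, 14.2 and 11.4 TPM in ROH, so that SAR replicate 1 lay below all ROH libraries by this unit and the fractions overlapped. In normalised counts, which take no account of transcript length, SAR replicate 1 was above them, at 22.5 CPM against 18.4 to 18.8 CPM in ROH, and the log2 fold change was 1.24 (SE 0.34, adjusted p = 0.0558). EFNA5 passed without SAR replicate 1 (1.54, adjusted p = 0.00428), with the replicate block (1.22, adjusted p = 0.0228), in DESeq2 (1.26, adjusted p = 0.0102) and with no filter on low counts (1.28, adjusted p = 0.0276). The other 5 ephrin-A genes, namely EFNA1, EFNA2, efna3a, efna4 and efna5b, did not pass, with fitted log2 fold changes between 0.25 for EFNA1 and 0.94 for efna3a. Of these, efna3a was the least abundant ephrin in both fractions, at 1.28, 1.32 and 0.966 TPM in SAR and 0.931, 0.496 and 0.339 TPM in ROH. Its counts were as low as 3 in ROH replicate 1, and the fractions were separate in TPM and overlapped in normalised counts.

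None of the 5 ephrin-B genes passed in edgeR with the filter on low counts and without the replicate block. There both EFNB2 genes and EFNB3 had an unadjusted p below 0.05. EFNB3 passed in DESeq2 and in edgeR with no filter on low counts. Ephrin-B2 is the arterial partner of EphB4, and 2 genes carry the symbol EFNB2. Which of them is efnb2a, the zebrafish arterial gene, could not be told from the name tables used here. ENSDARG00000074050 was the most abundant ephrin-B gene, with 60.7, 36.8 and 61.6 TPM in SAR and 78.4, 109.8 and 59.5 TPM in ROH. ENSDARG00000020164 had 23.5, 38.9 and 36.6 TPM in SAR and 28.2, 28.8 and 21.4 TPM in ROH. Both overlapped between the fractions, and their fitted differences had opposite signs, at -0.63 (SE 0.27, adjusted p = 0.201) and 0.57 (SE 0.22, adjusted p = 0.148).

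EFNB3, the homologue of a ligand that in the mouse keeps axons from crossing the midline of the spinal cord, was the ephrin-B gene with the largest difference. It had 14.8, 8.12 and 6.19 TPM in SAR, against 4.16, 3.79 and 3.06 TPM in ROH, without overlap. Its log2 fold change was 1.46 (SE 0.44) with an adjusted p of 0.0735 in edgeR, and ROH replicate 1 held 6 counts. With the replicate block EFNB3 passed at 1.19 and an adjusted p of 0.0413. The value of EFNB1, the gene whose human counterpart is mutated in craniofrontonasal syndrome, was 18.3 ± 3.72 TPM in SAR and 28.7 ± 6.78 TPM in ROH (SD, n = 3 each), with overlap. For efnb3a the sign itself depended on the unit. Its mean was 9.44 ± 3.54 TPM in SAR and 8.74 ± 3.93 TPM in ROH, whereas the fit of counts gave -0.53 (SE 0.33), and 0.30 once gene lengths entered as offsets.

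**Figure D2:**
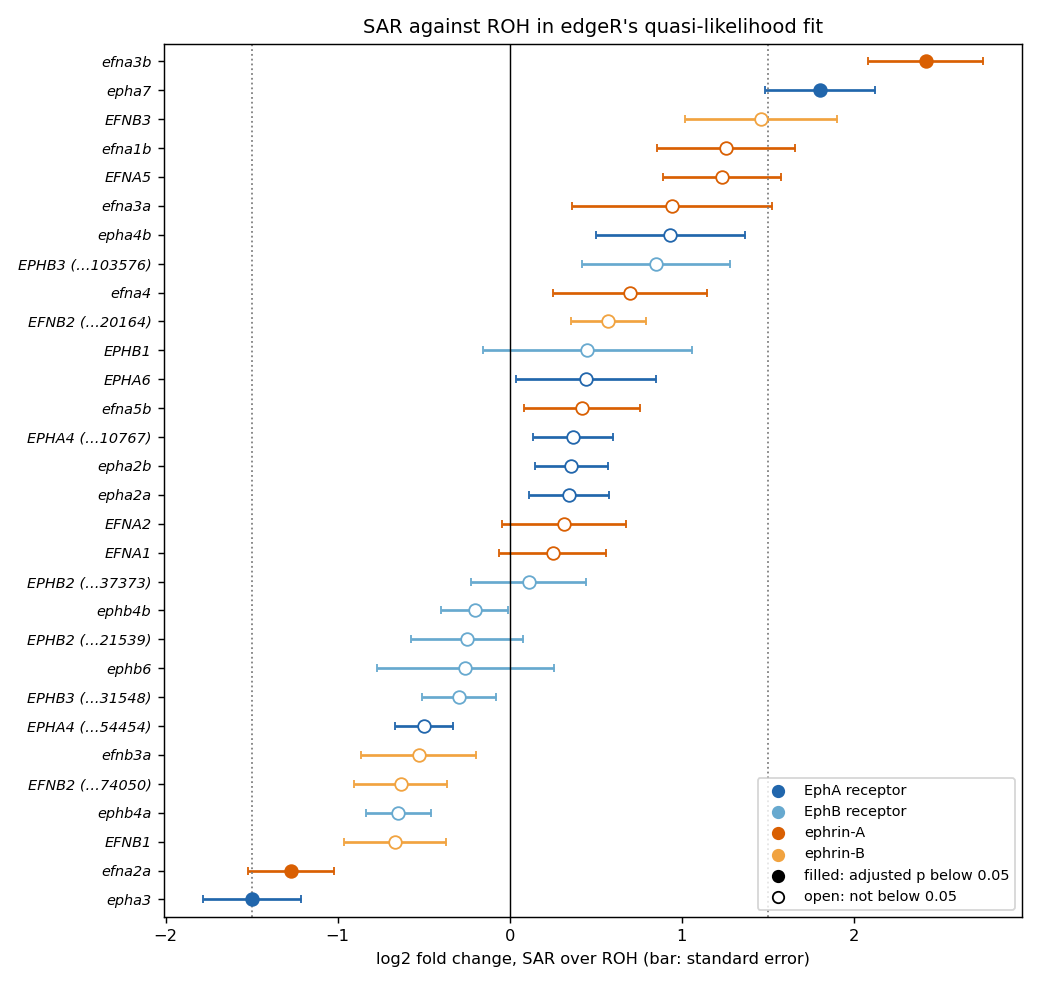
Log2 fold change of SAR over ROH in edgeR's quasi-likelihood fit for each of the 30 genes (horizontal axis; bars, standard error), coloured by class, with filled points for an adjusted p below 0.05 and dotted lines at 1.5 in either direction. Only efna3b and epha7 at the top and efna2a and epha3 at the bottom are filled, and 8 of 9 ephrin-A genes lie right of 0.

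Across the family the fitted log2 fold change was above 0 for 19 genes and below 0 for 11, with a median of 0.35. Over all genes tested the median was 0.03 and 52.3% were above 0. Every SAR library was above every ROH library in normalised counts for 7 of the 30 genes (epha7, epha2b, EPHB3 ENSDARG00000103576, efna3b, efna1b, EFNA5 and EFNB3), where 14.3% of all genes tested did so, and below for 4 (epha3, EPHA4 ENSDARG00000054454, ephb4a and efna2a), against a background of 15.6%. The other 19 overlapped, so that 11 of 30 were separate in either order, where 29.9% of all genes tested were. For each separated gene the exact two-sided permutation test over libraries gave 0.1, the smallest p that 3 against 3 allow. That test shuffled the libraries freely, without regard to the pairs. By class, the median log2 fold change was 0.36 for EphA receptors, with 6 of 8 above 0, and 0.70 for ephrin-A ligands, with 8 of 9 above 0. It was -0.23 for EphB receptors, with 3 of 8 above 0, and -0.53 for ephrin-B ligands, with 2 of 5 above 0. The signs for the B classes were not stable. Without ROH replicate 1 the EphB median was 0.05, and with gene length offsets the ephrin-B median was 0.30, as efnb3a changed sign. The ephrin-A count also moved, to 7 of 9 above 0 without SAR replicate 1 (median 0.86), where EFNA2 changed sign. It was 7 of 9 without SAR replicate 2 too (median 0.37), where EFNA1 changed sign.

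Summed levels place these genes against each other, since TPM accounts for length. It does not account for RNA quality or for uneven coverage along transcripts. Their effect on comparisons between genes was not tested. The 8 EphA genes summed to 134, 137 and 139 TPM in SAR, against 85.5, 87.8 and 118 TPM in ROH, and SAR was above ROH without overlap. Within the sum epha7 took 48.9, 44.0 and 55.5% of the EphA sum in SAR and 14.2, 17.4 and 24% in ROH. Without epha7 the EphA sum was 68.9 ± 7.26 TPM in SAR and 78.5 ± 9.64 TPM in ROH, with overlap. epha3 took 5.12 ± 0.842% of the EphA sum in SAR and 19.4 ± 1.62% in ROH, and EPHA4 ENSDARG00000054454 20.0 ± 2.09% in SAR and 36.1 ± 3.42% in ROH (SD, n = 3 each). The leading EphA gene was therefore epha7 in each SAR library and EPHA4 ENSDARG00000054454 in each ROH library.

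Ephrin-A genes summed to 361, 391 and 359.6 TPM in SAR, against 225, 229 and 141 TPM in ROH. efna1b was the largest share in both fractions, at 64.6 ± 6.28% in SAR and 48.6 ± 17.2% in ROH. Without efna1b the sum was 131 ± 25.7 TPM in SAR and 96.4 ± 5.12 TPM in ROH. The libraries were at 101.8, 149 and 143 TPM in SAR and 97.9, 90.7 and 100.6 TPM in ROH, so the closest nearly met. With efna3b left out as well, the fractions overlapped. efna2a took 3.64 ± 0.281% of the ephrin-A sum in SAR and 17.3 ± 8.67% in ROH, while efna3b took 8.33 ± 3.49% in SAR and 2.89 ± 1.36% in ROH (SD, n = 3 each).

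The B classes showed no such separation. EphB genes summed to 71.8 ± 13.8 TPM in SAR and 88.5 ± 16.5 TPM in ROH, and ephrin-B genes to 123 ± 15.0 TPM in SAR and 149.8 ± 29.2 TPM in ROH, and both overlapped. The share of ephb4a in the EphB sum was lower in every SAR library, at 42.1, 37.5 and 35.3% in SAR and 47.8, 47.5 and 48.1% in ROH. By TPM, summed ligand levels exceeded summed receptor levels in both fractions. The ratio of summed ephrin to summed Eph TPM was 2.49, 2.22 and 2.43 in SAR and 2.16, 2.11 and 1.39 in ROH. The ratio of ephrin-A to ephrin-B was 2.80, 3.67 and 2.67 in SAR and 1.64, 1.25 and 1.1 in ROH, a wider gap, and that of EphA to EphB was 2.10, 1.56 and 2.18 in SAR and 1.04, 0.818 and 1.55 in ROH, where the closest libraries nearly met. Without efna1b the ratio of ephrin to Eph overlapped between the fractions, and so did that of EphA to EphB without epha7. The closest libraries nearly met in the ratio of ephrin-A to ephrin-B without efna1b. As scores over the family these sums and ratios were given no test.

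**Figure D3:**
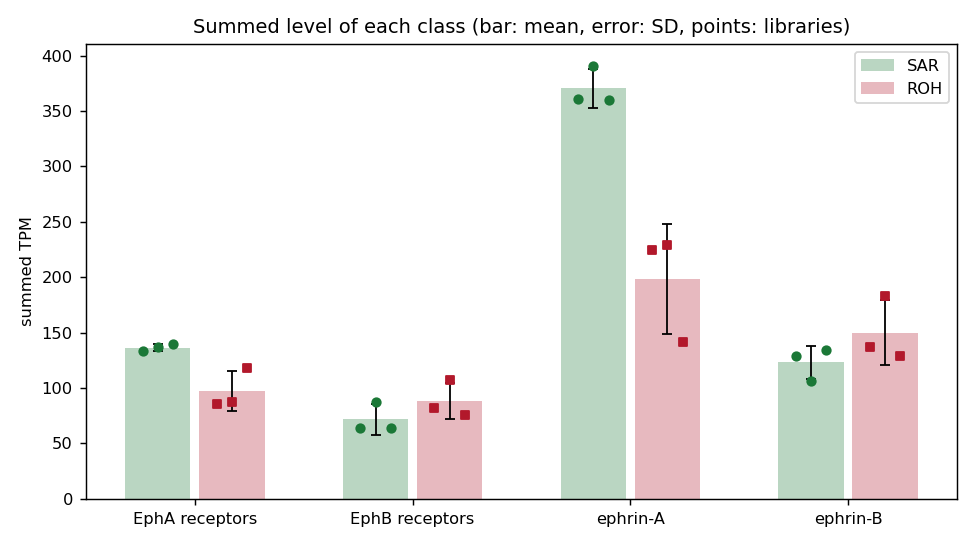
Summed TPM of the EphA, EphB, ephrin-A and ephrin-B genes (vertical axis) in SAR (green) and ROH (red); bars are means of 3 libraries, error bars their SD, and points the libraries. The ephrin-A sum was 371 ± 17.6 TPM in SAR and 198 ± 49.4 TPM in ROH, and the points of both B classes overlap.

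Many of the 30 genes are copies kept from genome duplication in fishes, with 2 or 3 genes to 1 family number. Whether the copies differed in their SAR to ROH ratio was asked with the log2 ratio of their TPM (with 0.5 TPM added to each) in 13 pairs. The fractions did not overlap in 8 of the 13 pairs. Some pairs share an EPHA4 gene, and no share of separated pairs was computed for other genes to set beside this count. Each of the 8 had an exact two-sided permutation p of 0.1 (adjusted p = 0.163 over the 13 pairs). This is the smallest possible with libraries shuffled freely, so none could pass at this number of libraries. The widest was efna3a over efna3b, at -4.14 ± 0.696 in SAR and -2.43 ± 0.739 in ROH (SD, n = 3 each), a difference of -1.71. efna3a itself was at 0.339 to 1.32 TPM, near the 0.5 TPM added, so this size and separation depend on that value. From TPM with nothing added, the ratio in SAR replicate 2 was above that in ROH replicate 3, so the fractions overlapped. Both copies were above their ROH libraries in TPM, and efna3b by the larger fold.

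In EFNA2 over efna2a the ratio was -0.47 ± 0.497 in SAR and -1.95 ± 0.395 in ROH, a difference of 1.48, as efna2a was lower in SAR and EFNA2 overlapped. Thus efna2a stood well above its copy in ROH, while the 2 were near each other in SAR. The EPHA4 copy ENSDARG00000054454 stood to epha4b at 2.19 ± 0.595 in SAR and 3.42 ± 0.408 in ROH, a difference of -1.23, and the fitted log2 fold changes of the 2 genes had opposite signs. EFNA1 over efna1b was at -3.90 ± 0.579 in SAR and -2.72 ± 0.559 in ROH, a difference of -1.19. For the 2 EFNB2 genes, ENSDARG00000020164 over ENSDARG00000074050, the difference was 0.94, from values of -0.67 ± 0.717 in SAR and -1.61 ± 0.265 in ROH (SD, n = 3 each). Smaller separated differences were those of the EPHB3 copies (-0.86), EPHA4 ENSDARG00000010767 over ENSDARG00000054454 (0.67) and ephb4a over ephb4b (-0.46). For ephb4a over ephb4b the closest libraries nearly met, at 0.643 in SAR replicate 1 and 0.675 in ROH replicate 2. They were also close for the EFNB2 genes (-1.35 in SAR replicate 1, -1.45 in ROH replicate 3). For EFNA1 over efna1b they were at -3.27 in SAR replicate 2 and -3.15 in ROH replicate 2. In the other 5 pairs, among them epha2a and epha2b with a difference of -0.10, the fractions overlapped. Counts were not whole in at least 1 library for 17 of the 30 genes, so reads were shared out between transcripts by the quantification, and part of a copy's reads may stand under another gene.

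**Figure D4:**
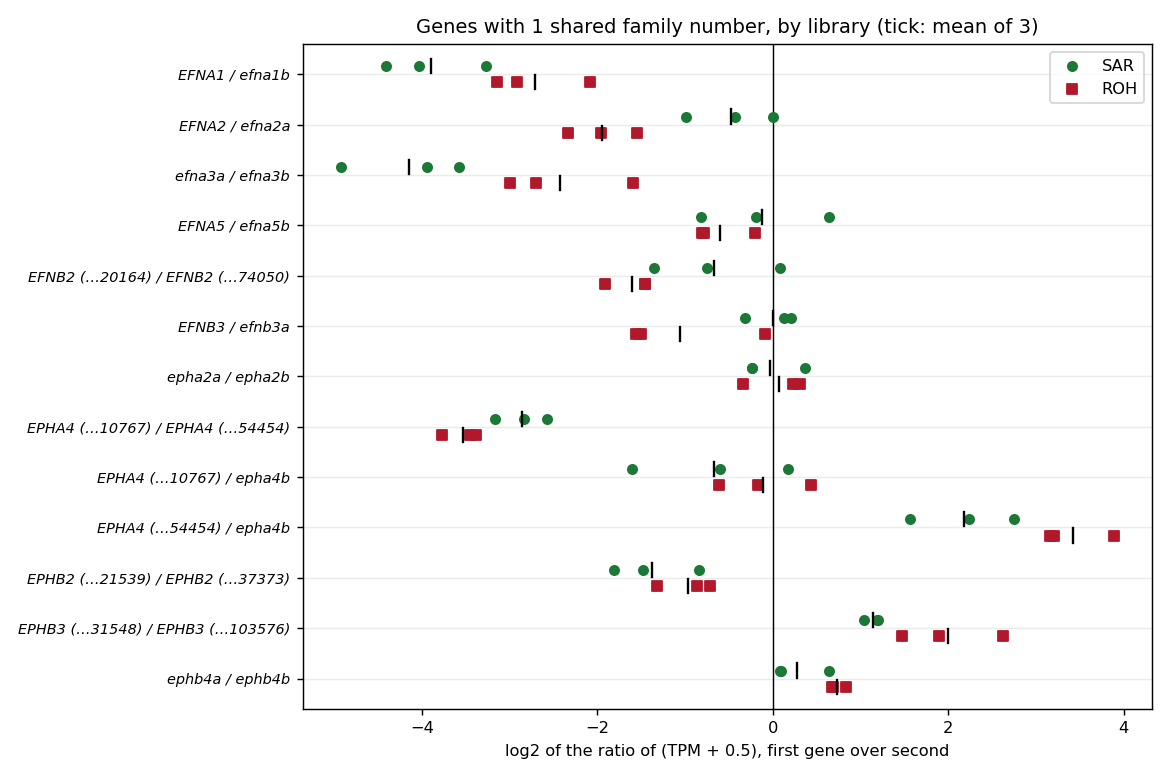
Log2 ratio of (TPM + 0.5) of the first gene over the second (horizontal axis) for 13 pairs of genes that share a family number, in SAR (green circles) and ROH (red squares) libraries, with a tick at the mean of 3. In efna3a over efna3b all SAR points lie left of all ROH points, and in EFNA2 over efna2a all lie right of them. The former order depends on the 0.5 TPM added, as efna3a was at 0.339 to 1.32 TPM.

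A run of 3 ephrin-A genes lies side by side. In RefSeq's annotation of assembly GRCz12tu, which is another build than the files', efna4, efna3b and efna1b follow each other with no protein-coding gene between them. All had fitted log2 fold changes above 0, at 0.70 (SE 0.45) for efna4, 2.42 for efna3b and 1.26 for efna1b. With all libraries and without the replicate block, only efna3b passed in edgeR. efna1b passed in DESeq2 and without ROH replicate 3. efna4 had 7.41, 13.4 and 12.3 TPM in SAR and 3.73, 9.20 and 5.82 TPM in ROH, with overlap, and only 2 counts in ROH replicate 1. Of the 3 protein-coding neighbours on each side, 4 could be matched to the files. flad1, which encodes an enzyme that makes FAD, was at 23.6 ± 2.97 TPM in SAR and 32.9 ± 12.9 TPM in ROH (log2 fold change -0.64, adjusted p = 0.139), and slc50a1, which encodes a sugar transporter, at 6.31 ± 0.944 TPM in SAR and 10.2 ± 1.37 TPM in ROH (-0.66, adjusted p = 0.244). shc1, an adaptor of receptor tyrosine kinases, was at 41.4 ± 10.9 TPM in SAR and 31.2 ± 3.01 TPM in ROH (0.49, adjusted p = 0.137). One neighbour did pass. si:dkey-247k7.2, next to slc50a1 on the side of efna1b, had 149.7, 122 and 97.5 TPM in SAR, against 5.34, 1.53 and 0.431 TPM in ROH, and rose by 6.03 on the log2 scale (SE 0.68, adjusted p = 0.00189 in edgeR), on 3, 19 and 5 counts in the ROH libraries. Its log2 fold change was between 4.61 and 7.20 under the 10 other processing settings that tested it, past the threshold in each.

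**Figure D5:**
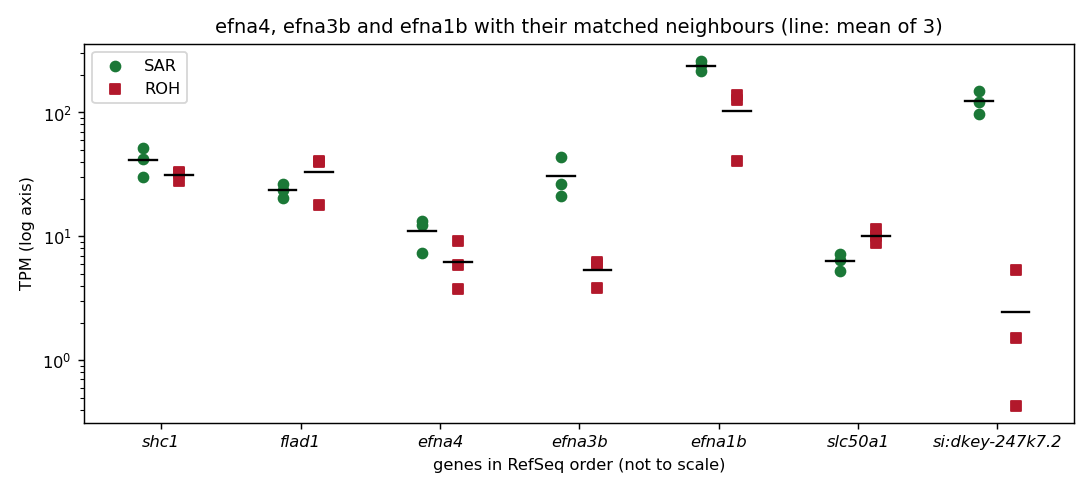
TPM (vertical log axis) of efna4, efna3b, efna1b and the 4 matched neighbours in RefSeq order (distances not to scale), in SAR (green circles) and ROH (red squares) libraries, with a line at the mean of 3. SAR and ROH are apart for efna3b and efna1b, in the opposite order for slc50a1 between them and si:dkey-247k7.2, and furthest apart for si:dkey-247k7.2.

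Proteins that act with Eph receptors and ephrins, such as adaptors, exchange factors, kinases and proteases known mostly from mammals, were listed apart from the family. Of 63 symbols, 1 was not matched, and 61 genes were tested. Of these 2 were higher in SAR, 3 were lower and 56 did not pass, against 10.3% of all genes tested that passed in either direction. The median log2 fold change over the list was 0.07. Lower in SAR were grb10a, an adaptor that in mammals binds EphB1, at 10.4, 21.2 and 18.5 TPM in SAR and 61.5, 99.96 and 48.3 TPM in ROH (log2 fold change -2.09, SE 0.29, adjusted p = 0.00389 in edgeR), and rgs3b, a homologue of the regulator that in the mouse links ephrin-B to G protein signalling, at 5.24, 9.46 and 6.80 TPM in SAR and 18.4, 31.9 and 14 TPM in ROH (-1.48, SE 0.25, adjusted p = 0.00855). Both were separate between the fractions and held without each library in turn, but rgs3b did not pass in the 3 limma fits of TPM (adjusted p = 0.0512 to 0.0780). anks1ab, a homologue of an adaptor that binds EphA receptors in mammals, was at 0.724, 0.729 and 0.759 TPM in SAR and 3.78, 3.88 and 1.89 TPM in ROH (-2.11, SE 0.43, adjusted p = 0.0168). Its adjusted p was 0.117 without ROH replicate 2 and 0.0568 without SAR replicate 3. In the 3 limma fits of TPM it was -1.23 to -1.90, with an adjusted p of 0.0795 to 0.109.

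Of the 2 partner genes higher in SAR, src, the kinase that acts below many receptors of the cell surface, had 8.74, 13.2 and 17.3 TPM in SAR and 10.3, 6.36 and 4.56 TPM in ROH, where SAR replicate 1 fell inside the ROH range, and a log2 fold change of 1.25 in counts (SE 0.27, adjusted p = 0.0212). It was not past the threshold without SAR replicate 3 (adjusted p = 0.0858), ROH replicate 1 (0.0583), ROH replicate 2 (0.0882) or ROH replicate 3 (0.0678), nor with thinned counts (0.0669) or in the 3 limma fits (0.244 to 0.332). kalrnb, a homologue of the exchange factor kalirin that acts below EphB2 in mouse neurons, had 28.3, 31.8 and 41.8 TPM in SAR and 11.4, 17.6 and 11.7 TPM in ROH, and a log2 fold change of 0.67 (SE 0.18, adjusted p = 0.046), which was 2.15 with gene length offsets. With any single library left out its adjusted p was between 0.0601 and 0.157, and it was 0.101 with library totals only and 0.0727 with no filter on low counts.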

How the data were processed

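Hearts of sqet33mi59BEt embryos were dissociated and sorted by FACS into SAR (GFP+) and ROH (GFP-) cells, as 3 biological replicates each. The authors amplified cDNA (SMART-Seq v4), built Nextera XT libraries, mapped paired reads to GRCz11 with Ensembl annotation and ran Salmon (version not given in the sources used here). TPM, as deposited, corrects for length and for library size. An estimated count and an effective length, weighted over transcripts, were also deposited for each gene. RNA was amplified without molecular identifiers, so counts carry amplification error, and strand was not stated. The study measured RNA integrity, and its effect on the levels given here was not tested.

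Gene symbols came from the study's supplementary lists for 6 of the 30 genes and otherwise from an Ensembl name table. Estimated counts were rounded, filtered with filterByExpr (minimum count 10, minimum total 15), normalised by TMM and fitted with edgeR (version 4.0.16, R version 4.3.3), robust quasi-likelihood, with the fraction as the only factor. P-values were adjusted by Benjamini-Hochberg over 21969 genes, all 30 among them. A gene passed at an adjusted p below 0.05, and was called with the study's fold threshold where its log2 fold change was 1.5 or more in size. P-values of this fit without the block rest on the spread between libraries within a fraction, each from a pool of embryos. The fit took these libraries as independent. Per the study's methods 3 pools were prepared and each was sorted into both fractions, and the labels number the libraries of a fraction 1 to 3, so same-numbered libraries were taken as pairs, although the number is not stated to mark a pool. The deviations of same-numbered libraries from their fraction's mean correlated across genes at r = 0.0985, 0.273 and 0.124, each above every correlation between different numbers. Deviations from a mean of 3 libraries sum to 0, so higher values for some combinations force lower ones for others. This order therefore does not establish the pairs. Single genes and copy ratios were also compared with exact two-sided permutation tests of the 6 libraries, which took them as independent and ignored the pairs.

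Values were given for genes that passed, genes whose fractions did not overlap, the most abundant gene of each class, ephb4a and the EFNB2 genes, and for the partner genes that passed. Values of other Eph and ephrin genes, such as copies and neighbours of these, and of the neighbouring genes were added after they were seen. Counts of passing genes were written out for the alternatives, which were DESeq2 (version 1.42.0), RLE factors, library totals only, no filter, 10 counts in every library, gene length offsets, counts thinned to the smallest library, limma (version 3.58.1) on log2(TPM + 1), log2(TPM + 0.1) or genes averaging 1 TPM or more, the replicate number as a block, and each library left out in turn. The genes, lists and partner list were chosen with earlier results of these data known. Neighbouring genes were read from RefSeq's annotation of GRCz12tu, which was used for names and order only.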

Additional observations from a re-analysis of the deposited data

How the results depend on the processing

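For the settings in this paragraph, the share of all genes tested that passed is not given. A change in the counts thus cannot be told apart from a change in the background. The genes that passed as higher in SAR numbered 5 under DESeq2, 4 with no filter on low counts, 1 with at least 10 counts in every library, where 20 of the 30 genes were tested, and 1 to 3 with a library left out, against 2 in the report. Those that passed as lower numbered 4 with library totals only, 1 with thinned counts and 0 to 2 with a library left out, against 2. With the fold threshold, 1 gene was higher with 10 counts in every library and 1 to 3 with a library left out, against 2, and 1 was lower with library totals only and 0 to 1 with a library left out, against 0. The lower gene was epha3 each time, namely with library totals only and without SAR replicate 1, ROH replicate 1 or ROH replicate 2. Library totals moved the median of all genes tested to -0.08, against 0.03 with TMM, and there EPHA4 ENSDARG00000054454 (-0.61, adjusted p = 0.0386) and ephb4a (-0.77, adjusted p = 0.0332) passed too. Partner genes that passed as higher numbered 1 with library totals only, no filter, thinned counts and each of the 3 limma fits, and 0 to 1 with a library left out, against 2, and as lower 1 in each limma fit, against 3.

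With the replicate number as a block, 5 genes passed as higher (epha7, efna3b, efna1b, EFNA5 and EFNB3), against 2, and 3 as lower (epha3, efna2a and ephb4a), 1 of them past the fold threshold, against 0. Of all genes tested with the block, 7.11% passed as higher and 7.17% as lower. The pairing changed no other call of an Eph, ephrin or named partner gene.

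The log2 fold change of efnb3a, -0.53 in the report, was 0.30 with gene length offsets and 0.14, 0.17 and 0.14 in limma on log2(TPM + 1), on log2(TPM + 0.1) and on genes averaging 1 TPM or more. Leaving out a library gave -0.11 to 0.29 for EPHB2 ENSDARG00000037373 (-0.11 without SAR replicate 2 and -0.09 without ROH replicate 3), -0.55 to 0.14 for ephb6 (0.14 without ROH replicate 1), -0.069 to 0.41 for EFNA1 (-0.069 without SAR replicate 2) and -0.018 to 0.60 for EFNA2 (-0.018 without SAR replicate 1). The log2 ratio of epha2a to epha2b differed between fractions by -0.31 to 0.016 (0.016 without ROH replicate 1). The log2 ratio of SAR to ROH of a class sum was -0.19 without epha7 and 0.88 in CPM for EphA (0.49 in the report), 0.45 without efna1b for ephrin-A (0.90), and 0.065 without EFNB2 ENSDARG00000074050 and 0.090 in CPM for ephrin-B (-0.28). Depth limited the genes with under 10 counts in ROH replicate 1.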

Other observations

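Salmon's effective length of a gene, which is weighted by the transcripts found in a library, can change when a library holds longer or shorter transcripts of that gene. It also shifted between libraries by the same number of bases in several genes. epha2b, epha3, epha4b and efna2a each had an SD of 98.8 bases in SAR and 137 bases in ROH. A change in length thus need not be a change of transcripts. Among the 30 Eph and ephrin genes this length did not separate the fractions for any, where it was longer in every SAR library for 2.16% and shorter for 0.733% of all genes tested. The gene with the widest spread was efnb3a, at 305, 2690 and 1544 bases in SAR and 2334, 1364 and 1959 bases in ROH. SAR replicate 1 thus carried the shortest value and SAR replicate 2 the longest, so libraries of 1 fraction differed more than the fractions did. EFNA5 had 1621, 1897 and 1338 bases in SAR and 1323, 1307 and 1437 bases in ROH, with overlap. These 2 genes were singled out after their values were seen, as the sign of the difference of efnb3a and the order of the EFNA5 libraries were not the same in TPM and in counts.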
